A study of Mus musculus with 28 samples.

Results

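The clustered protocadherins are the alpha, beta and gamma tandem gene families of mouse chromosome 18. Members were chosen by symbol alone, as protein-coding genes on that chromosome named Pcdha, Pcdhb or Pcdhg with a number or a lettered number. The rule gave 57 genes of the 21883 protein-coding genes in the RefSeq table, of which 14 were alpha, 22 were beta and 21 were gamma. Their locus ran from 36930285, the start of Pcdha1, to 37842873, which is 1 kb past the last gamma end (mm10), a length of 912.6 kb. It held 12 of the 5446 H3.3 consensus regions and 11 of the 57857 H3K27ac consensus regions.

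The regions came from CUT&RUN on nuclei of the male mouse embryonic stem cell line E14, in which a nuclease is brought to antibody-bound chromatin and the fragments it releases are sequenced. The series title names the substitution K122A, alanine for lysine at position 122 of the histone variant H3.3, which is encoded by H3f3a and H3f3b, and the genotype labels write mutant alleles as A. Each target (H3.3, H3K27ac, H3K122ac and a no-antibody control) had 7 libraries. These were 1 of H3f3a_AA_H3f3b_WTWT, 1 of H3f3a_WTWT_H3f3b_AA, 2 of H3f3a_AA_H3f3b_WTA from 2 clones, 1 of H3f3a_WTA_H3f3b_AA and 2 of wildtype cells. All cells were grown on gelatin in serum medium with LIF, and the labels also describe a medium with added inhibitors without saying which libraries it applies to. The values used here are 1 list of region positions for H3.3 and 1 for H3K27ac. Neither list has a value per library, so mutant and wildtype cells were not compared, depth is unknown and no count below has a replicate error. Intervals in parentheses are exact 95% intervals (Clopper-Pearson) over genes or regions. They cover counting error only, and they treat neighbouring genes as independent.

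Clustered protocadherins are cell adhesion proteins that give neurons a surface identity. In the alpha and gamma families each member has its own promoter and its own large variable exon, which encodes the extracellular domains, the membrane span and part of the cytoplasmic tail. That exon is spliced to a set of constant exons shared by the whole family. Beta genes are made of a single variable exon with no constant part. In neurons most members are switched on in a combination that differs from cell to cell, through looping of a promoter to distant enhancers by CTCF and cohesin, whereas the C-type members (Pcdhac1, Pcdhac2, Pcdhgc3, Pcdhgc4 and Pcdhgc5) are expressed more uniformly. H3.3 is a replication-independent variant of histone H3, and H3K27ac, an acetylated lysine of histone H3, is typical of promoters and enhancers in use.

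Defining genes of embryonic stem cells were checked against the lists. H3K27ac lay at the start of 5 of 6 stem cell genes, Klf4, Nanog, Pou5f1, Sox2 and Zfp42, and the sixth, Esrrb, had 10 H3K27ac regions in its body or within 1 kb of it. Of 6 neuronal genes (Tubb3, Map2, Rbfox3, Syn1, Dcx, Snap25) none had H3K27ac at the start, or at either end for Snap25. By the wider count used for Esrrb, Syn1 had 3 H3K27ac regions, and Rbfox3 and Tubb3 had 1 each. Of 4 fibroblast genes Thy1 had H3K27ac, in a region of 213 bp, where Thy1 and Col1a1 were counted by either end. The share over protein-coding genes with a listed start was 36.2%. The intervals for the stem cell (35.9 to 99.6%), neuronal (upper limit 45.9%) and fibroblast genes (0.631 to 80.6%) all include it.

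Across the locus, H3.3 sat on a few gene starts, mostly in the gamma family, and H3K27ac sat mainly over the gamma constant part. A member's start is here its annotated lower-coordinate end, which for alpha and gamma genes is the end they do not share. A region counted as at a start when it touched the 1 kb on either side of it. H3.3 was at the start of 8 of 57 members (14%, 6.26 to 25.8%), against 16.4% of the 17491 protein-coding genes with a start site in the RefSeq promoter table, so the family as a whole stood near the level of other genes. H3K27ac was at the start of 2 of 57 (3.51%, 0.428 to 12.1%), against 36.2% of those 17491 genes. The intervals for H3K27ac lay below that share in each family, with 0 of 14 alpha starts (upper limit 23.2%), 0 of 22 beta starts (upper limit 15.4%) and 2 of 21 gamma starts (9.52%, 1.17 to 30.4%). Of the 57 members 1, Pcdhga7, carried both marks at its start, against 10.6% of genes in the background. Neither mark was at the start of 48 members, and the share with neither was not counted over other genes.

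**Figure D1:**
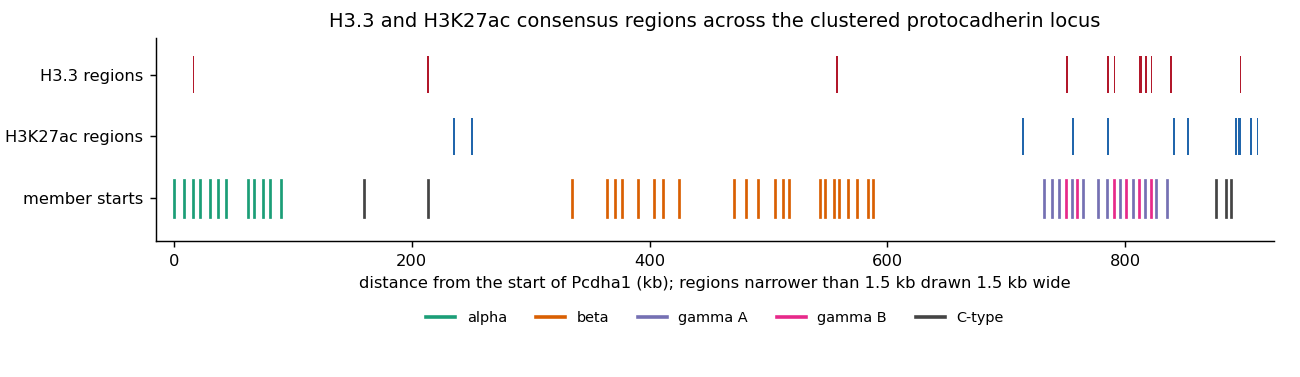
Positions of H3.3 regions (top row), H3K27ac regions (middle row) and the starts of the 57 members (bottom row, coloured by type) along the locus, in kb from the start of Pcdha1. H3.3 regions gather in the gamma family at the right, and no H3K27ac region lies over the 22 beta starts in the middle.

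In the alpha family H3.3 marked 2 of 14 starts, at opposite ends of the variable part. Pcdha3, an alternate alpha isoform, had a region of 503 bp on chromosome 18 from 36946114 to 36946616, which began 26 bp after its start. Pcdhac2, the C-type alpha isoform that is needed in mice for the spacing of serotonergic axons, had a region of 927 bp from 37143261 to 37144187. That region reached from 417 bp before the Pcdhac2 start to 509 bp after it, and it was wider than or as wide as 79.7% of all H3.3 regions. The other 12 alpha starts had neither mark. Among them, Pcdha1, Pcdha2, Pcdha4, Pcdha5, Pcdha6 and Pcdha7 lay 15.83, 6.91, 6.07, 13.66, 21.01 and 27.2 kb from the nearest H3.3 region, and Pcdhac1, the other C-type alpha isoform, lay 53.12 kb from one.

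The alpha constant part, taken from 3 kb past the Pcdhac2 start to 1 kb past the last alpha end, held no H3.3 region and 2 H3K27ac regions. These were 760 bp from 37165243 to 37166002 and 204 bp from 37180342 to 37180545. The smaller of them was among the narrowest of the list, at the 1.54th percentile of width. Together they covered 2.23% of the 43.2 kb, against 2.57% of chromosome 18 for H3K27ac, so the alpha constant part was covered to about the extent of the chromosome. The alpha variable part, 216.4 kb long, held no H3K27ac region.

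The beta family was the emptiest of the clusters. Its 22 starts had neither mark (0.0% for each mark, with an upper limit of 15.4%). The shares over protein-coding genes with a listed start were 16.4% for H3.3 and 36.2% for H3K27ac. A window of 2.5 kb reached an H3.3 region from 2 of the 22, against 17.5% of those genes. Its 256.4 kb held 1 H3.3 region and no H3K27ac region. For H3.3 this is 0.39 regions per 100 kb, against 0.2 on chromosome 18, and 0.0827% of the length, against 0.129%. The H3.3 region, 212 bp from 37486872 to 37487083, lay inside Pcdhb17 and began 1851 bp after its start. It was at the 7.75th percentile of width among H3.3 regions. From Pcdhb1 to Pcdhb6 the starts lay between 120.81 and 166.49 kb from the nearest H3.3 region, and the lowest distance in the family was the 1.85 kb of Pcdhb17. Such distances are common, since 51.6% of protein-coding genes with a listed start lay over 100 kb from H3.3, compared with 36.4% of beta starts.

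The gamma family held most of the H3.3 of the locus. Of its 21 starts, 6 carried H3.3 (28.6%, 11.3 to 52.2%), an interval that includes the 16.4% of other protein-coding genes. In genomic order these 6 were Pcdhgb1, Pcdhga7, Pcdhgb4, Pcdhgb6, Pcdhga10 and Pcdhgb7. With the wider 50% of each list, 3 of the 21 gamma starts carried H3.3, against 8.59% of protein-coding genes with a listed start. The gamma variable part held 8 H3.3 regions in 160.8 kb, or 4.98 per 100 kb, against 0.2 per 100 kb of chromosome 18 and 0.205 over all assembled chromosomes. They covered 3.04% of the gamma variable part, 0.0827% of the beta cluster and 0.661% of the alpha variable part, against 0.129% of chromosome 18. Gamma starts are close together, with a median spacing of 5369 bp, compared with 7440 bp for alpha and 7842 bp for beta, so density per length and share of starts are different measures.

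Neighbours differed within the gamma family. A run of 3 adjacent members, Pcdhgb6, Pcdhga10 and Pcdhgb7, all carried H3.3. Their regions measured 975 bp at Pcdhgb6 (37742071 to 37743045), 858 bp at Pcdhga10 (37747003 to 37747860) and 945 bp at Pcdhgb7 (37751619 to 37752563). A further region of 733 bp followed inside Pcdhgb6, separated by a gap of 0.1 kb. These 4 regions covered 3511 bp of a stretch of 10493 bp, and they made up 51.9% of all the sequence that H3.3 covered in the locus. On either side of this run, Pcdhga9 lay 5.13 kb and Pcdhga11 3.21 kb from the nearest H3.3 region.

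The remaining H3.3 regions at gamma starts were narrower. They measured 331 bp at Pcdhgb1 (37680291 to 37680621), 377 bp at Pcdhga7 (37714777 to 37715153) and 251 bp at Pcdhgb4 (37720398 to 37720648), each below the median of 451.5 bp over all H3.3 regions. The last region of the gamma variable part, 411 bp from 37767641 to 37768051, lay in Pcdhga12 and began 2061 bp after its start. Pcdhga1, Pcdhga2, Pcdhga3, Pcdhga4, Pcdhgb2 and Pcdhga5 had no H3.3 region at the start.

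**Figure D2:**
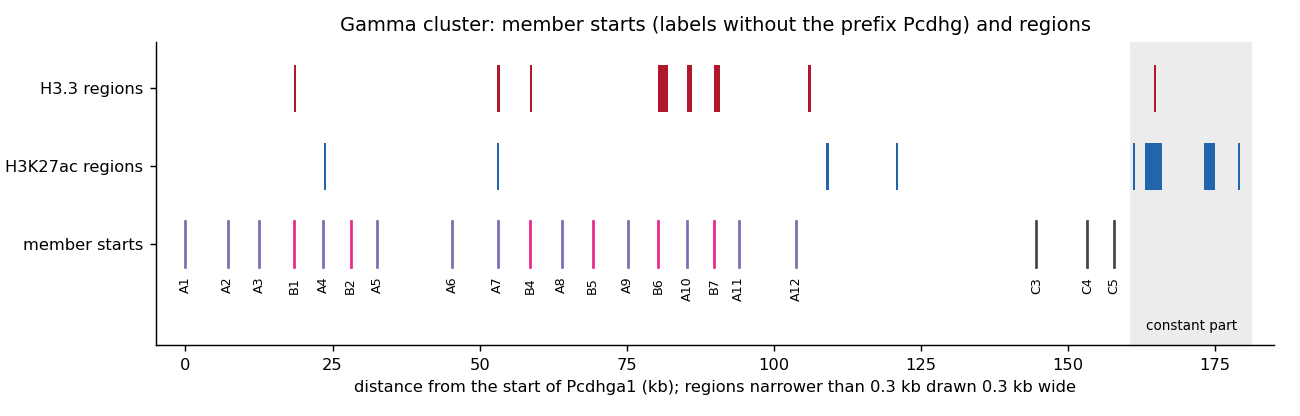
The gamma family in kb from the start of Pcdhga1, with H3.3 regions (top), H3K27ac regions (middle) and member starts (bottom, A-type violet, B-type pink, C-type dark grey). H3.3 lies on the starts of B1, A7, B4, B6, A10 and B7, and H3K27ac is densest in the shaded constant part.

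By subtype, a grouping made after the values were seen, H3.3 lay at 4 of 6 gamma B starts (66.7%, 22.3 to 95.7%) and at 2 of 12 gamma A starts (16.7%, 2.09 to 48.4%). The B-type starts without it were those of Pcdhgb2 and Pcdhgb5. The share over protein-coding genes with a listed start was 16.4%, inside the gamma A interval and below the gamma B interval. The intervals of the subtypes overlap, and the difference was not tested. Because the grouping was chosen with the values known, nothing is concluded from it. Of the 5 C-type starts Pcdhac2 alone carried H3.3. Pcdhgc3, Pcdhgc4, which is needed in mice for the survival of cortical interneurons, and Pcdhgc5 lay 19.99, 11.32 and 6.85 kb from the nearest H3.3 region.

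At the members that carried it, H3.3 mostly began near the annotated start and extended into the gene. Of the 8 regions at starts, 7 had their upstream edge within 100 bp of the start, from 57 bp before it at Pcdhga7 to 26 bp after it at Pcdha3, and the exception was Pcdhac2. Over the 2869 protein-coding genes whose listed start carried H3.3, 21.6% of upstream edges lay within 100 bp. The downstream edges of the 8 regions lay between 272 and 951 bp inside the gene. The median upstream edge was 6.5 bp before the start for members and 324 bp before it for those 2869 genes, and the median downstream edge was 518.5 bp after the start for members and 246 bp after it for the others. By these values member regions lay further into the gene, as far as the annotated starts are accurate. The measures differ, however. For the 2869 genes the listed start and region with the closest centre were used, whereas each member has a single annotated start. In all, 11 of the 12 H3.3 regions touched the first 3 kb of a member, and these windows make up 18.7% of the locus.

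**Figure D3:**
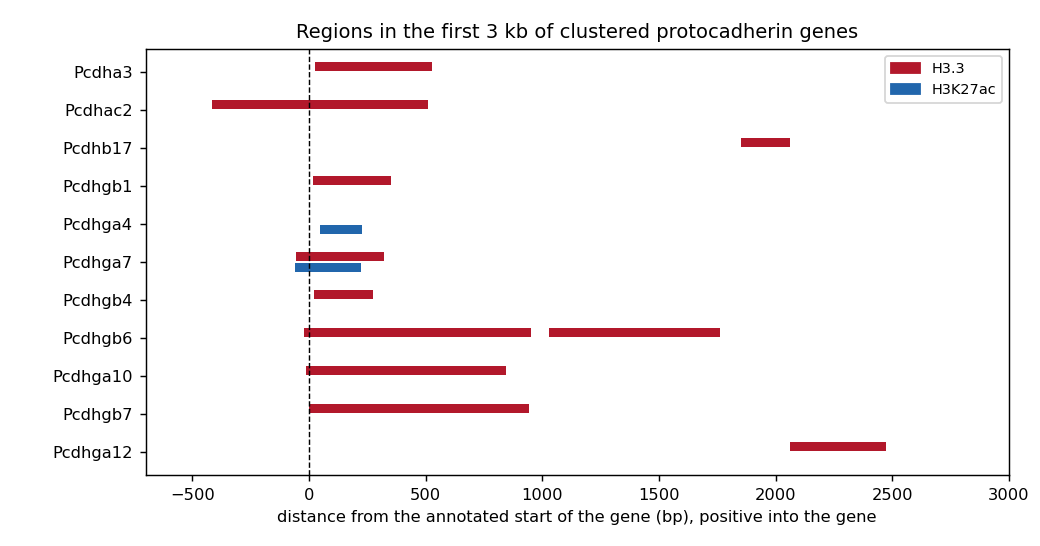
Extent of each H3.3 region (red) and H3K27ac region (blue) that touches the first 3 kb of a member, in bp from its annotated start (dashed line), with members in genomic order. Of the H3.3 regions, 7 begin within 100 bp of the start, that of Pcdhac2 begins 417 bp before it, and the second of Pcdhgb6 and those inside Pcdhb17 and Pcdhga12 begin 1028, 1851 and 2061 bp after it. The H3K27ac regions of Pcdhga4 and Pcdhga7 also begin within 100 bp.

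H3K27ac at gamma starts was narrow and infrequent. It lay at Pcdhga4, in a region of 182 bp from 37685283 to 37685464, and at Pcdhga7, in a region of 283 bp from 37714773 to 37715055. The Pcdhga4 region was at the 0.252th percentile of width among H3K27ac regions and the Pcdhga7 region at the 13th. The H3K27ac region of Pcdhga7 overlapped the H3.3 region there by 279 bp. Past the last A-type member, 2 further H3K27ac regions lay between the Pcdhga12 and Pcdhgc3 starts. They measured 597 bp, beginning 5000 bp after the Pcdhga12 start, and 229 bp, beginning 16914 bp after it.

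The gamma constant part was the most acetylated stretch of the locus. It is the 20.3 kb from 3 kb past the Pcdhgc5 start to 1 kb past the shared gamma end. Its 4 H3K27ac regions measured 318, 2974, 1890 and 410 bp and covered 27.5% of it, against 2.57% of chromosome 18 and 2.93% of all assembled chromosomes. They made up 59.2% of all the sequence covered by H3K27ac in the locus. The widest ran from 37824824 to 37827797 and was at the 90.5th percentile of width. It overlapped the annotated lncRNA Gm29994 by 687 bp and contained the H3.3 region of 245 bp (37826399 to 37826643) of the constant part.

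Because all gamma genes end in the same constant exons, a count by gene ends says little about single members here. When either annotated end of a gene was used, 21 of 57 members had H3K27ac (36.8%), against 38.8% of all 21883 protein-coding genes. All 21 were gamma genes, and the far end of each was called from the same region of 410 bp (37840623 to 37841032). By starts, the count was 2. For H3.3 the counts by starts and by either end were both 8, against 16.0% of all protein-coding genes by either end, since no H3.3 region lay at a shared end.

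The marks coincided at 2 places in the locus. Of the 12 H3.3 regions of the locus 2 touched H3K27ac (16.7%, 2.09 to 48.4%), those of Pcdhga7 and of the gamma constant part, compared with 47.5% of the 5430 on all assembled chromosomes. The interval includes that share, so no difference was detectable with 12 regions. Counted from the other list, 2 of the 11 H3K27ac regions of the locus touched H3.3 (18.2%, 2.28 to 51.8%), compared with 4.36% of all 57844 on assembled chromosomes, a share that also lies inside the interval. H3.3 regions of the locus had a median width of 457 bp, compared with 451.5 bp over the whole list. H3K27ac regions of the locus had a median width of 410 bp, compared with 812 bp over the whole list.

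Long stretches of the locus had no H3K27ac region. The gap from 36803550 to 37165242 spanned 361.7 kb and all 14 alpha starts. The gap from 37180546 to 37643264 spanned 462.7 kb and all 22 beta starts. The median gap between neighbouring H3K27ac regions was 3.8 kb over 57823 gaps. Of these gaps 2.63% and 2.05% were at least as wide as the alpha gap and the beta gap. These are shares of the number of gaps and not of sequence, of which wide gaps hold a larger share. Alpha starts thus lay a median of 152.0 kb from the nearest H3K27ac region and beta starts 156.0 kb. The medians were 10.7 kb for gamma starts and 10.1 kb for protein-coding genes with a listed start. Of those genes 21.9% lay over 100 kb from an H3K27ac region, compared with 85.7% of alpha, 95.5% of beta and 0.0% of gamma starts. For H3.3 the medians were 24.1 kb for alpha, 58.4 kb for beta and 5.13 kb for gamma starts, compared with 109.0 kb for those protein-coding genes. Starts of 1 family share their neighbouring regions, so these distances are not independent values.

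Genes with H3K27ac lay on both sides of the locus. In the 100 kb before Pcdha1 there was no region of either list, and beyond it H3K27ac lay at an end of 8 of the 10 nearest protein-coding genes. On the other side it lay at an end of 6 of the 10 nearest, against 38.8% of all protein-coding genes by either end. H3.3 lay at an end of 4 of the 10 on each side, against 16.0%. Neighbouring genes shared regions, so these genes are not independent counts and no excess is concluded. Ndufa2 and Ik shared an H3.3 region of 264 bp, and Hars and Hars2 shared 1 of 507 bp. After the locus, Diaph1 and Hdac3 shared an H3K27ac region of 5958 bp. The 8 with H3K27ac before the locus included Zmat2 (1270 bp) and the histidyl-tRNA synthetase genes Hars and Hars2 (a shared region of 1397 bp). They also included Tmco6, Ndufa2 and Ik (a shared region of 2567 bp). Ndufa2 encodes a respiratory complex I subunit and Ik a splicing factor. In the 100 kb after the gamma end 19 H3K27ac regions covered 33.6% of the sequence. They lay over Diaph1, which encodes a formin that nucleates actin and had 18 H3K27ac regions in or within 1 kb of it, and reached Hdac3, a histone deacetylase gene with 5958 bp at its end. Between the beta and gamma families, Taf7, which encodes a subunit of the general transcription factor TFIID, had an H3K27ac region of 1591 bp, and its neighbour Slc25a2, a mitochondrial ornithine carrier gene, had no region of either list.

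**Figure D4:**
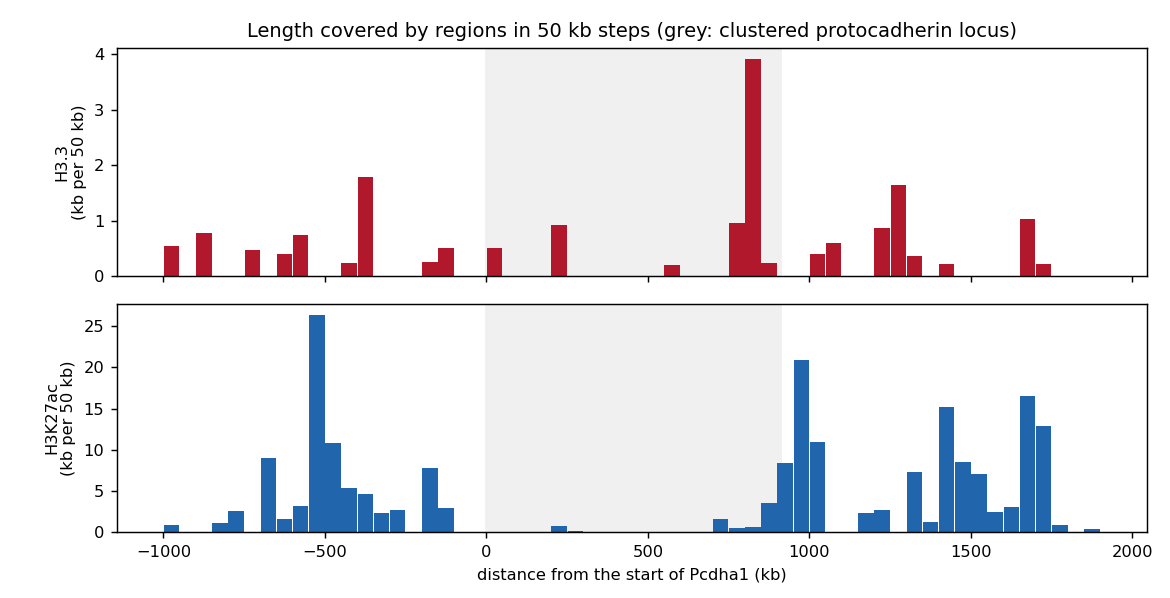
Length covered by H3.3 regions (top) and H3K27ac regions (bottom) in steps of 50 kb, in kb from the start of Pcdha1, with the locus shaded. The tallest H3.3 bar, 3922 bp, falls in the gamma family, and H3K27ac rises at the gamma end into Diaph1.

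Clustered members with H3.3 had narrower regions than most other protocadherin genes with it. Of 12 non-clustered protocadherins, which encode related adhesion proteins from separate loci, 6 had H3.3 at the start (50.0%, 21.1 to 78.9%), or at either end for Pcdh1, Pcdh11x and Pcdh12, whose starts are not listed. None had H3K27ac there (upper limit 26.5%). The shares over protein-coding genes with a listed start were 16.4% for H3.3 and 36.2% for H3K27ac. The regions measured 3039 bp at Pcdh10, 2923 bp at Pcdh7, 1658 bp at Pcdh17, 1255 bp at Pcdh8, 1090 bp at Pcdh1 and 304 bp at Pcdh19. The median over the 8 clustered members with H3.3 was 680.5 bp, compared with 1456.5 bp over these 6 genes. Pcdh11x, Pcdh12, Pcdh15, Pcdh18, Pcdh20 and Pcdh9 had no H3.3 region there.

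Pcdh10 and Pcdh18, which lie on the same chromosome and encode related proteins of the non-clustered group, are shown as a pair with and without H3.3. The RefSeq promoters (GRCm38.p6, 250 bp before to 50 bp after the start) are given because an H3.3 region covers all 300 bases of the first and none of the second. Capitals mark CG dinucleotides, the only letters searched, which read the same on both strands.
Pcdh10 (chr3:45378148-45378447, plus strand): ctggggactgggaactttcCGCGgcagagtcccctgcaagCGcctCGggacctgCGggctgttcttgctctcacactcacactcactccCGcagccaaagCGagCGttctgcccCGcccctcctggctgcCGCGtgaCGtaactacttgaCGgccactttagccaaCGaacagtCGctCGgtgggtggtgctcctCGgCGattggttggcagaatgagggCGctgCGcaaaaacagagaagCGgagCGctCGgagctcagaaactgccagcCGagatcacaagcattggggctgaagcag
Pcdh18 (chr3:49757267-49757566, minus strand): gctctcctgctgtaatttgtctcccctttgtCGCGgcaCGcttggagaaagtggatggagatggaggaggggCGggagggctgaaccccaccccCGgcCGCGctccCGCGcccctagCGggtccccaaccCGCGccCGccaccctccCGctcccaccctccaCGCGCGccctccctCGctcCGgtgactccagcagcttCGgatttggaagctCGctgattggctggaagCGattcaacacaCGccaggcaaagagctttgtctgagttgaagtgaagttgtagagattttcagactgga
The Pcdh10 promoter held 24 CG and the Pcdh18 promoter 23, so this pair had nearly the same number with and without H3.3. The pair does not stand for the whole list. Among the other promoters, H3.3 covered all 300 bases at Pcdh17 (26 CG) and Pcdh8 (14 CG). It covered 51 bases at Pcdh19 (18 CG) and 27 at Pcdh7 (11 CG). It covered none at Pcdh15 (8 CG), Pcdh20 (4 CG) and the listed starts of Pcdh9 (19 and 18 CG). Over the 17491 protein-coding genes with a listed promoter, 95% held a CG, and the median number was 23 for those with H3.3 at the start and 11 for those without.

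Set beside other tandem families, the alpha and gamma families lay between extremes for H3.3 but not for H3K27ac. The shares of starts with H3.3 were 14.3% for alpha, 0.0% for beta and 28.6% for gamma. For H3K27ac they were 0.0% for alpha and beta and 9.52% for gamma, compared with 0.18% for olfactory and 0.567% for vomeronasal receptor genes. Olfactory and vomeronasal receptor genes, which sensory neurons choose singly, had almost no region: H3.3 was at 1 of 1110 olfactory receptor genes (0.0901%) and 1 of 353 vomeronasal receptor genes (0.283%), and H3K27ac at 2 of each. Hox genes, developmental regulators in 4 clusters, had H3.3 at 38 of 39 (97.4%, with 17 of the 39 counted by either end) and H3K27ac at none. The widest H3.3 region at each of the 38 genes had a median of 3605 bp. This median is over genes, and a region shared by neighbours, as at Hoxa5 and Hoxa6 (7205 bp), enters it more than once.

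**Figure D5:**
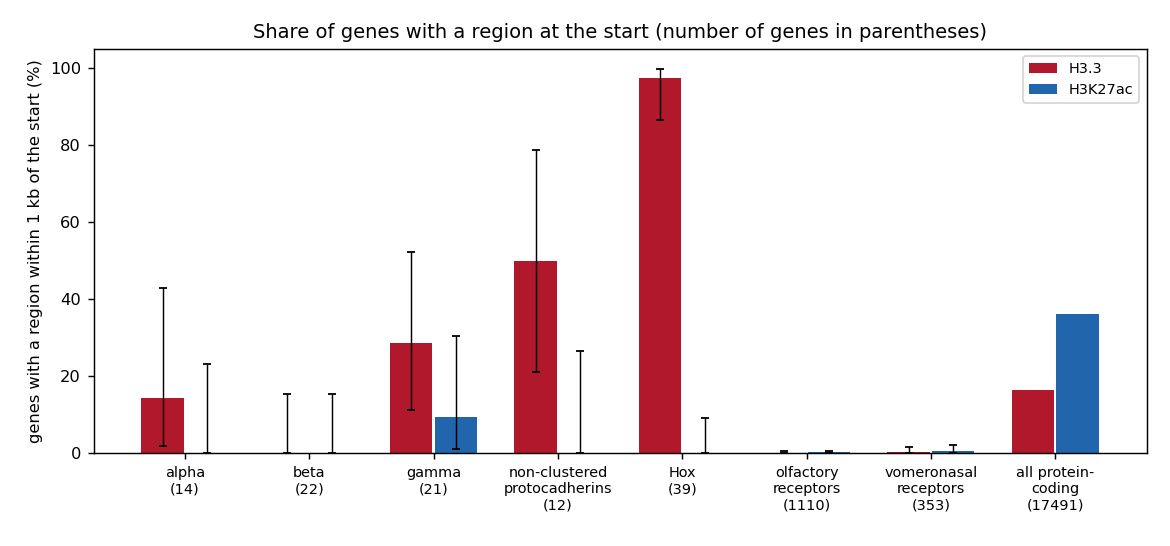
Percentage of genes with an H3.3 region (red) or an H3K27ac region (blue) within 1 kb of the start, or of either end where no start is listed, for the 3 families, related and other clustered genes, and all protein-coding genes with a listed start at the right (16.4% and 36.2%). Error bars are exact 95% intervals over genes, and the beta family has neither mark.

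Taken 1 mark at a time, genes that act on the clusters or on their proteins in neurons had shares not told apart from those of other genes. No start is listed for 3 of 10 looping, 2 of 12 silencing and 5 of 10 kinase and actin regulator genes. These, among them Rad21, Rest and Cyfip1, were counted by either end. Among 10 looping genes 5 had H3K27ac by this rule (50.0%, 18.7 to 81.3%). It was widest at the cohesin subunit gene Rad21 (5600 bp) and at Ctcf (4346 bp), then Stag1 (2589 bp), Pds5a (1845 bp) and the cohesin release factor gene Wapl (1832 bp). None of the 10 had H3.3 there (upper limit 30.8%). Among 12 silencing genes 8 had H3K27ac (66.7%, 34.9 to 90.1%) and 5 had H3.3 (41.7%, 15.2 to 72.3%), and the 5 with H3.3 were among the 8. Those with both were Dnmt1, Lrif1, Rest, Trim28 and Wiz (41.7%, 15.2 to 72.3%). Over protein-coding genes with a listed start 10.6% had both, which lies below that interval, and the difference was not tested. The widest H3K27ac was at the neuronal-gene repressor gene Rest (12565 bp) and at the maintenance DNA methyltransferase gene Dnmt1 (9450 bp). Dnmt3b, Ehmt2, Setdb1 and Smchd1, which encodes a repressor of clustered protocadherins, had neither mark at the start. H3K27ac regions in the gene or within 1 kb of it numbered 12 for Setdb1, 9 for Dnmt3b, 6 for Smchd1 and 5 for Ehmt2. Among 10 genes for kinases and actin regulators that meet the cytoplasmic part, 5 had H3K27ac (50.0%), widest at Cyfip1 (2601 bp) and Abi1 (2392 bp), and 1, Pik3r1, had H3.3 (369 bp). Over protein-coding genes with a listed start the shares were 36.2% for H3K27ac and 16.4% for H3.3, and for each of these 3 lists the interval includes that share. By either end, over all protein-coding genes, the shares were 38.8% and 16.0%.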

How the data were processed

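The deposited files used here are the H3.3 list and the H3K27ac list of consensus regions, giving the chromosome, start and end of each region with no score, height or p-value. Per the submitters' processing notes, mm10 was the build, and Bowtie2, SAMtools, deepTools and MACS2 were among the tools. How libraries were combined, which genotypes entered a list and any threshold were not given in the sources used here. Per the labels' protocols, H3.3 and H3K27ac libraries differed in the nuclease fusion and in the salt at which digestion was stopped, so the sizes of the lists do not compare amounts of chromatin. The no-antibody and H3K122ac libraries were not analysed here.

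Starts were raised by 1 to give 1-based positions. Regions off the assembled chromosomes (16 for H3.3, 13 for H3K27ac) were left out. Genes came from the RefSeq table of GRCm38.p6, whose primary chromosomes carry mm10 coordinates. Start sites came from the RefSeq promoter table, which lists none for chromosome 18, so members took the lower annotated end and other genes without a listed start took either end. For beta genes this orientation comes from the known arrangement of the locus. The table gives no exons, so variable and constant parts were divided 3 kb past the last variable start of a family. A region was counted at a start when it touched 1 kb on either side by at least 1 bp. No test was run, since the lists hold no replicates. The overlap count was checked on simulated intervals. Python 3.11.15, pandas 2.3.3, NumPy 2.4.6 and SciPy 1.17.1 were used.

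The members and gene lists were chosen with earlier results of these data known. Named genes were members with a region, C-type members, up to 6 members of each family without a region in genomic order, and up to 10 genes with and 6 without a region of each other list. Pcdhga9 and Pcdhga11, beside the H3.3 run, and Pcdhgb2 and Pcdhgb5 by subtype were named after their values were seen. Of 14 non-clustered protocadherin names, 12 were found.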

Additional observations from a re-analysis of the deposited data

How the results depend on the processing

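Of 22 alternatives, 17 left a count within 1.5 times its value and 5 did not. With the wider 50% of each list, H3.3 was at 5 member starts instead of 8 (2 alpha, 0 beta, 3 gamma) and H3K27ac at 0 instead of 2, and the locus held 6 H3.3 and 3 H3K27ac regions instead of 12 and 11. With this setting H3.3 was at 8.77% of members, against 8.59% of protein-coding genes with a listed start, and H3K27ac at 0.0%, against 24.6%. With either annotated end, H3K27ac was counted at 21 members, all from the shared gamma end. Windows of 500 bp and 2.5 kb, the region centre, joining within 1 kb and a locus wider by 10 kb on each side left every count of members or regions within 1.5 times, with 8 to 11 starts for H3.3 (2 alpha, 2 beta and 7 gamma at 2.5 kb). At 2.5 kb H3.3 was at 19.3% of members, against 17.5% of protein-coding genes with a listed start, and H3K27ac at 3.51%, against 39.2%. Counting the first 3 kb of each member, chosen after seeing the data, gave 10 members for H3.3 and 2 for H3K27ac. No paired analysis was possible because the lists carry no value per library, and for the same reason no replicate could be left out. Depth is unknown, so a member without a region is not shown to lack the mark.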

Other observations

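Of the records at the locus that are not members, 4 with protocadherin variable parts were looked at by their lower ends. Pcdhgb8, a transcribed pseudogene of the B subtype, had no region within 1 kb of its lower end, which lay 5.8 kb from the nearest H3.3 region and 8.8 kb from the nearest H3K27ac region. The records Gm37013, Gm38666 and Gm38667, annotated from the alpha variable part through to the gamma constant part over 889.2, 874.2 and 868.1 kb, had no region of either list within 1 kb of their lower ends.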
